A study of Mus musculus with 47 samples.

Results

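MyoD is the transcription factor that commits cells to the skeletal muscle lineage, and the data below ask what muscle progenitors express when 1 of its 2 gene copies is lost. Gene expression of 4 MyoD+/- arrays was set against 10 wild-type arrays, chosen by their titles among 47 arrays of the series. All are of progenitor cells sorted from the back muscle of mouse embryos at E17.5, from a stock that mixes 129/Ola, 129/Sv and C57BL/6. The sort kept cells with the adhesion protein Vcam-1, which muscle progenitors carry, and dropped cells with CD31 of endothelium, CD45 of blood cells or Sca1 of interstitial mesenchyme. The 18 MyoD-/- arrays, which carry no intact copy, gave the far end of the dosage scale. The other genotypes, 8 arrays of Pax3cre/+;DnMamlflox/flox;MyoD-/- and 7 of Pax3cre/+;Rbpjflox/flox;MyoD-/-, served only in estimating the spread between arrays and the chip effects. MyoD+/- and wild-type embryos carry no Cre allele in their labels.

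MyoD binds the E-box, a short DNA word read by basic helix-loop-helix factors, and pairs there with E proteins. In muscle precursors it switches on myogenin, contractile proteins and the acetylcholine receptor genes, while Notch signalling from neighbouring cells holds progenitors undifferentiated through the Hes and Hey repressors. A gene present in 1 copy instead of 2 often yields less transcript, but feedback and the second allele can raise the remaining output.

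Array numbers follow the labels. MyoD+/- arrays 1, 2, 3 and 4 lie on chips 4, 5, 6 and 7, each beside 1 wild-type array (7, 8, 9 and 10) and 2 MyoD-/- arrays. The other 6 wild-type arrays lie on chips 1 and 2, which hold no MyoD+/- array. Probes detected per array numbered 10501 to 11505 in MyoD+/- and 8761 to 11561 in wild type, and the number of arrays limits the precision. By Xist and the Y-linked transcript Eif2s3y, MyoD+/- held 2 male and 2 female arrays and wild type 4 male and 6 female arrays. On chips 4 to 7 wild-type arrays 7, 9 and 10 were male and array 8 female. The MyoD+/- array shared the sex of its wild-type neighbour except on chip 6, where it was female. Nothing in the labels says whether an array holds 1 embryo or a pool, so p-values measure only the spread between these arrays. Levels are log2 intensities after background correction and quantile normalisation. Differences are log2 changes from limma with chip as a covariate, either over all chips or over chips 4 to 7 alone, where every MyoD+/- array has a wild-type array on its own chip. Called means a Benjamini-Hochberg adjusted p below 0.05 over the 8658 genes tested.

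Vcam1 stood at 13.82, 14.07, 13.88 and 13.97 in MyoD+/- and at 13.34 to 14.12 in wild type. The early progenitor factors were hardly seen: Pax3 was detected in 0 of 47 arrays, and Pax7 and Myf5 in 2 each. Of the leukocyte markers, Ptprc (CD45) and 5 others did not pass the detection filter, while Laptm5 did. It was detected in 20 of 47 arrays, at 6.66 to 7.42 in MyoD+/- and 6.70 to 7.12 in wild type on chips 4 to 7. The endothelial genes Cdh5, Kdr and Tie1 did not pass. The other 5 endothelial markers passed, among them Tek and Egfl7 at abundant levels and Pecam1 (CD31), seen on 2 of 4 MyoD+/- arrays and 3 of 10 from wild type. Their summed level was 11.97 to 12.304 in MyoD+/- and 11.80 to 12.25 in wild type on chips 4 to 7. All 9 fibroblast markers passed as well, with a summed level of 15.43 to 15.80 in MyoD+/-, against 15.24 to 15.70 in wild type on those chips, and a median difference of 0.28. The part of these transcripts in the results was not tested. Erythroid transcripts were present in both groups, with a summed level of 15.43 to 15.71 in MyoD+/-, against 14.90 to 15.47 in wild type on chips 4 to 7. A pair of the MyoD+/- arrays also carried cartilage transcripts, described at the end.

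Myod1 itself was lower with 1 copy. Its levels were 10.71, 10.86, 10.90 and 10.96 in MyoD+/- arrays 1 to 4, against 11.41, 11.10, 11.59 and 11.36 in the wild-type arrays of the same chips. The MyoD+/- array was below its wild-type neighbour on each of the 4 chips, and the groups did not overlap there. The wild-type arrays of chips 1 and 2 reached down to 10.76, so over all 10 wild-type arrays the groups overlap. The pair differences were -0.70, -0.23, -0.69 and -0.40, and on chips 4 to 7 the fit gave -0.50 ± 0.12 (SE, limma, 95% interval -0.75 to -0.26), which is 0.705-fold, with an interval of 0.595 to 0.835. That was the third lowest p of 8658 genes (unadjusted p = 0.000346), yet after adjustment over all genes it was not called (adjusted p = 0.997). Over all chips it was -0.30 ± 0.15 (interval -0.60 to -0.0044, adjusted p = 0.93). An exact sign-flip test over the 4 pairs gave p = 0.125, two-sided, the smallest this design allows.

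**Figure D1:**
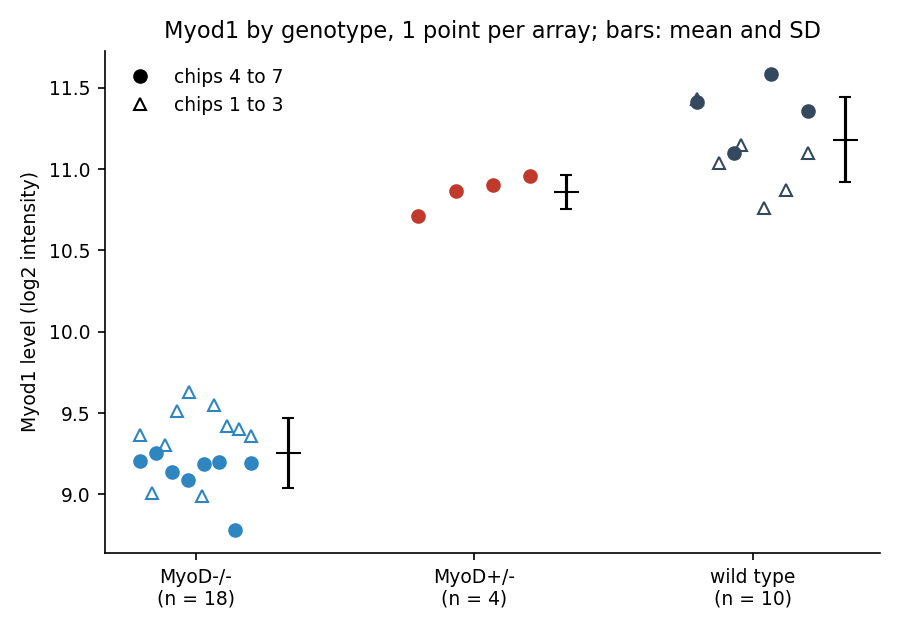
Myod1 level (log2 intensity, vertical axis) in each array of MyoD-/-, MyoD+/- and wild type, with filled circles for chips 4 to 7, open triangles for chips 1 to 3, and bars for the mean and SD. The 4 MyoD+/- arrays sit between 10.71 and 10.96, above every MyoD-/- array (8.78 to 9.63) and at the lower edge of the wild-type arrays (10.76 to 11.59).

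The MyoD-/- arrays placed this difference on a scale. Myod1 was at 8.78 to 9.63 in the 18 MyoD-/- arrays, with a median of 9.23, and its single probe was still detected in every one. The sources used here do not say whether this probe falls in the deleted stretch. MyoD+/- exceeded MyoD-/- by 1.73 ± 0.10 on chips 4 to 7 (SE, limma, adjusted p = 2.53e-09). MyoD-/- was below wild type by -2.23 ± 0.10 there (adjusted p = 2.11e-11). A position can be read from the linear intensities of a chip by setting its MyoD-/- mean to 0% and its wild-type array to 100%. MyoD+/- then lay at 50.7%, 80.1%, 53.3% and 69.9% on chips 4, 5, 6 and 7, a mean of 63.5% ± 13.9 (SD, n = 4). Chips 4 and 6 lay near the middle of the span and chips 5 and 7 nearer wild type. On the log2 scale MyoD+/- was above the midpoint of MyoD-/- and wild type by 0.69 ± 0.13 over all chips (adjusted p = 0.00944) and by 0.61 ± 0.10 on chips 4 to 7 (adjusted p = 0.0045). The log2 midpoint is the geometric mean and lies below the middle of the linear span, so a level above it need not exceed what a single copy would give in proportion.

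Across the transcriptome no gene was called between MyoD+/- and wild type. Of 8658 genes, 0 (0%) passed limma's adjusted p over all chips, and 0 on chips 4 to 7. At an unadjusted p under 0.05 there were 192 higher (2.22%) and 220 lower (2.54%) over all chips, 4.76% of genes together, and 127 higher (1.47%) and 152 lower (1.76%) on chips 4 to 7, 3.22% together. In the same fit 2003 genes were called between MyoD-/- and wild type (23.1%), 967 higher (11.2%) and 1036 lower (12%) in MyoD-/-. On chips 4 to 7 alone these were 1139 (13.2%), with 499 higher (5.76%) and 640 lower (7.39%). Between MyoD+/- and MyoD-/- 400 genes were called (4.62%), 248 higher (2.86%) and 152 lower (1.76%) in MyoD+/-, and on chips 4 to 7 alone 916 (10.6%), 558 higher (6.44%) and 358 lower (4.13%). These comparisons share arrays and differ in their numbers, so the counts stand side by side only.

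What the arrays do give is a bound on how far a gene can have moved. The median 95% interval reached 0.35 to either side on the log2 scale, or 1.28-fold. For 5911 genes (68.3%) the whole interval lay within a 1.5-fold change either way, and for 8173 (94.4%) within 2-fold. A 2-fold fall lay outside the interval of 8533 genes (98.6%) and a 2-fold rise outside that of 8282 (95.7%), or of 98.9% and 98.2% of genes on chips 4 to 7. Among the 2886 abundant genes, those with a mean log2 level of at least 10.46, the shares within 1.5-fold and 2-fold were 88.4% and 98.7%. On chips 4 to 7 they were 95% and 99.1%.

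The sarcomere and muscle differentiation genes, the products of the programme MyoD drives, showed no common shift on chips 4 to 7. Of 60 listed genes 39 were measured, and 0 were called in either direction. The intervals of all 39 lay within 2-fold on chips 4 to 7, and those of 28 within 1.5-fold, against 97.4% and 83.6% of all genes. Only 12 of the 39 were abundant, and of these 12 lay within 2-fold and 11 within 1.5-fold there. Dim members bound a change less surely, as signal near background can hide it. Ckmt2, for one, passed detection on 2 of 4 MyoD+/- arrays and 2 of 10 from wild type. The median difference of the 39 on chips 4 to 7 was -0.0046, against -0.00063 over all genes. In these bulk samples fewer cells of a type and less RNA per cell cannot be told apart.

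Actc1, cardiac alpha actin and among the brightest of the list, read 14.32, 14.58, 14.22 and 14.20 in MyoD+/- and 14.36, 14.48, 14.30 and 14.11 in the wild-type arrays of the same chips. The values interleave chip by chip, with a difference of 0.02 (interval -0.35 to 0.39). Myl1, a fast myosin light chain, read 14.28, 13.84, 13.60 and 13.93 in MyoD+/-, against 13.82, 14.03, 13.85 and 13.67 in wild type. It was higher in MyoD+/- on 2 chips and lower on the other 2 (0.07, interval -0.27 to 0.41). Desmin (Des), the muscle intermediate filament, differed by -0.08 (interval -0.30 to 0.14), and the tropomyosins Tpm1 and Tpm2 by -0.06 and 0.01. MyoD-/- arrays of the same chips fell in Actc1 (-0.95, adjusted p = 0.000208) and Myl1 (-0.89, adjusted p = 0.000157), but Tpm1 (-0.10) and Des (0.08) were not called there.

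Few genes of the list kept 1 direction. In all, 4 of the 39 were lower and 1 higher on all 4 chips, which is near the 8.45% and 7.44% of all genes. Actn3, the alpha actinin of fast fibres, read 8.26, 8.09, 7.75 and 7.89 in MyoD+/-, against 8.44, 8.38, 8.58 and 8.20 in wild type on the same chips. It was lower on each chip, while its highest MyoD+/- array passed the lowest wild-type one (-0.40 ± 0.15, interval -0.72 to -0.08, adjusted p = 1 by limma). Tnnt1, slow troponin T, was below its neighbour on all 4 chips too, with 13.33, 13.38, 12.92 and 13.08 in MyoD+/- and 13.44, 13.42, 13.60 and 13.34 in wild type. The other 2 were Tpm1 and myoglobin (Mb). Mb was near background in every genotype, detected in 0 of 4 MyoD+/- arrays, 1 of 10 from wild type and 2 of 18 from MyoD-/-. Myh8, perinatal myosin heavy chain, goes the other way in the mutant: it rose by 1.71 in MyoD-/- (adjusted p = 9.16e-08). MyoD+/- arrays held it at 12.86, 12.62, 12.60 and 13.08, against 12.54, 12.63, 12.45 and 12.62 in wild type, a difference of 0.23 (interval -0.11 to 0.58). A second Myh8 probe, detected in all 47 arrays, gave 0.32 on chips 4 to 7 and was lower on 0 of the 4 chips.

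For this list the fit over all chips reads otherwise. It put 31 of the 39 genes higher in MyoD+/-, against 19 on chips 4 to 7, and 14 genes turned sign between the 2 fits. Its bounds were wider, with 30 of the 39 intervals within 2-fold and 16 within 1.5-fold, against 94.4% and 68.3% of all genes. At an unadjusted p under 0.05 (limma) 7 were higher and 0 lower, against 2.22% and 2.54% of all genes. Acta1, skeletal alpha actin, was 0.42 over all chips (interval -0.17 to 1.02) and -0.14 on chips 4 to 7 (interval -0.58 to 0.31). Its levels were 12.996, 12.92, 12.34 and 13.08 in MyoD+/-, against 12.71 to 13.17 in wild type on chips 4 to 7 and 9.99 to 11.10 in wild type on chips 1 and 2. Srl, encoding sarcalumenin of the sarcoplasmic reticulum, had the lowest p of the list over all chips (0.59, unadjusted p = 0.00756, adjusted p = 0.93) and passed detection on only 1 MyoD+/- array and 1 from wild type. The median difference of wild type over MyoD-/- for the list was 0.0043 on chips 1 and 2 and 0.73 on chips 4 to 7, so a fit that takes 1 genotype effect for all chips mixes unlike values. The values within chips 4 to 7 do not depend on that.

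**Figure D2:**
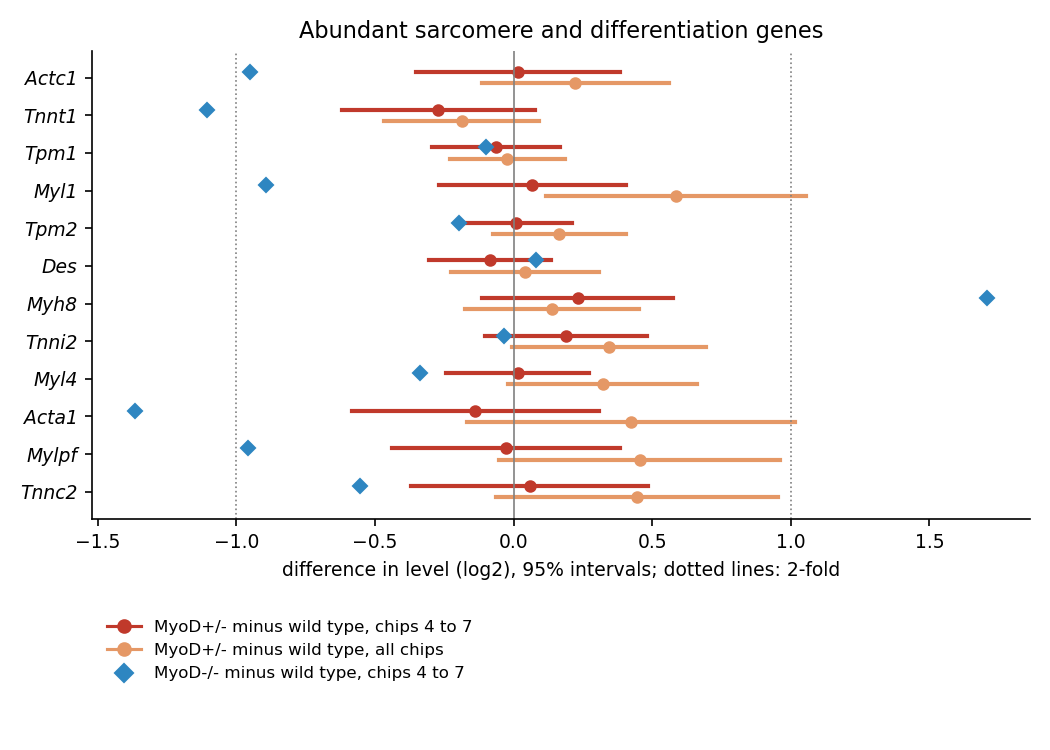
Differences in level (log2, horizontal axis) for the 12 abundant sarcomere and differentiation genes, with 95% intervals for MyoD+/- minus wild type on chips 4 to 7 (red) and over all chips (orange) and diamonds for MyoD-/- minus wild type on chips 4 to 7. The red intervals of all 12 lie within 2-fold and include 0, while orange points such as Acta1 and Myl1 lie to the right at 0.42 and 0.59.

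Several neuromuscular synapse genes were lower on every chip by small amounts, though not the list as a whole. The muscle acetylcholine receptor is built from subunits encoded by Chrna1, Chrnb1, Chrnd and either Chrng in the embryo or Chrne in the adult, and rapsyn (Rapsn) clusters it at the synapse. Of 9 genes measured 0 were called, 5 were lower in MyoD+/- on all 4 chips and 2 were higher on all 4, where 8.45% and 7.44% of all genes did so. The median difference on chips 4 to 7 was -0.18. Chrna1 and Chrng, both lower on every chip, are textbook E-box genes. The RefSeq windows from 250 bases before to 50 after their starts are printed here from build GRCm38.p6. Each CAGCTG and CAGGTG is in capitals. Of 152 genes in the muscle, synapse and Notch lists, 113 have such a window in the table used. Among these lists only Chrna1 and Chrng were searched, so whether the words go with a lower level was not tested.
Chrna1, chr2:73580289-73580588, minus strand: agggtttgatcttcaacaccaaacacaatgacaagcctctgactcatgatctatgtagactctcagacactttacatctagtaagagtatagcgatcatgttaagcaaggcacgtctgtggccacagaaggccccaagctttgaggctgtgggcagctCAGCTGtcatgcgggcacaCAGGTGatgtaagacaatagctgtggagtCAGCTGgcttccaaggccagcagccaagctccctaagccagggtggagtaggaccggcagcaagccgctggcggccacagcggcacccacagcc
Chrng, chr1:87205561-87205860, plus strand: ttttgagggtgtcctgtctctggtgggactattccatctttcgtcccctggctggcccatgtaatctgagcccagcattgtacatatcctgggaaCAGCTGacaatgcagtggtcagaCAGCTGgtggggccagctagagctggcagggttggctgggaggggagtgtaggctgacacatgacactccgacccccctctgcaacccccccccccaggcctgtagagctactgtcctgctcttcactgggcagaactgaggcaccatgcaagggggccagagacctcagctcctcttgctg

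In Chrna1 CAGCTG begins 92 and 44 bases before the start and CAGGTG 73 bases before it, and in Chrng CAGCTG begins 155 and 132 bases before. CAGCTG reads the same on both strands, and CAGGTG was searched on both as CAGGTG and CACCTG. The words share no bases in these windows. Among 32851 promoter windows, 16.3% hold CAGCTG and 20.2% hold CAGGTG, while 1.9% hold CAGCTG at least 2 times. These matches describe the letters and say nothing of binding in these cells.

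Chrna1 read 11.55, 11.82, 11.44 and 11.27 in MyoD+/- arrays 1 to 4, against 11.94, 12.20, 11.71 and 11.56 in the wild-type arrays of the same chips. The differences were alike on the 4 chips, -0.39, -0.37, -0.28 and -0.29, although the levels of the groups overlap across chips. The fit on chips 4 to 7 gave -0.33 ± 0.13 (SE, limma, interval -0.61 to -0.06, adjusted p = 1). A second probe was lower on all 4 chips as well, by -0.24 in the fit. Over all chips the sign turned, to 0.17 (interval -0.27 to 0.60). MyoD-/- minus wild type for Chrna1 was -1.54 on chips 4 to 7 and -0.53 on chips 1 and 2.

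Chrng read 11.98, 12.004, 11.75 and 11.75 in MyoD+/-, against 12.23, 12.26, 12.14 and 12.02 in wild type. All 4 MyoD+/- values lie below all 4 wild-type values of those chips (-0.30 ± 0.14, interval -0.58 to -0.01, adjusted p = 1). Rapsn read 10.94, 10.73, 10.93 and 10.96 in MyoD+/-, against 11.12, 10.91, 11.18 and 11.14 in wild type. Its 4 differences ran from -0.25 to -0.18 (-0.20 ± 0.15, interval -0.50 to 0.11), and 3 of 3 probes were lower on every chip. Chrnd read 6.00, 6.61, 6.53 and 6.50 in MyoD+/-, against 6.80, 6.74, 7.03 and 6.79 in wild type, but it was dim and passed detection on 2 of 4 MyoD+/- arrays and on 5 of 10 from wild type. Musk, the receptor kinase that organises the synapse, went the other way and was higher on all 4 chips, by 0.14 to 0.36 (0.27, interval -0.40 to 0.94), while a second probe, detected in 6 of 47 arrays, was lower on 1 chip. Chrne and Chrnb1 had no common direction, with -0.42, -0.46, -0.20 and 0.38 for Chrne and -0.04, -0.21, 0.03 and -0.02 for Chrnb1.

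**Figure D3:**
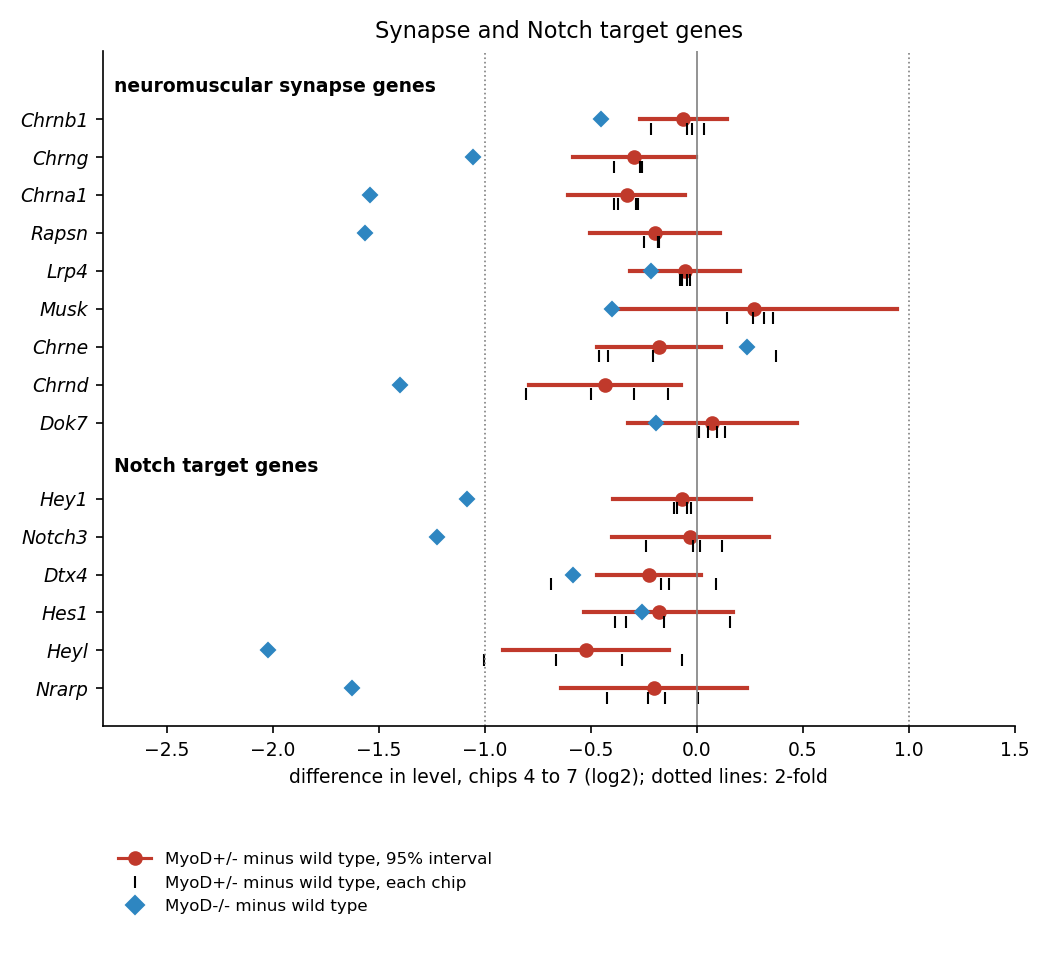
Differences from wild type on chips 4 to 7 (log2, horizontal axis) for the 9 neuromuscular synapse genes and 6 Notch target genes: red points and lines for MyoD+/- with its 95% interval, black ticks for the 4 single chips, blue diamonds for MyoD-/-. Chrng, Chrna1, Chrnd and Heyl have red intervals wholly below 0 and inside the 2-fold line at -1, while the diamonds of Chrng, Chrna1 and Heyl lie at -1.06, -1.54 and -2.02. Chrnd passed detection on 0 of 18 MyoD-/- arrays, so its diamond is set against a probe not well above background and is no measured difference.

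Notch pathway transcripts gave a mixed picture. Of the 9 Notch target genes 6 were measured and 0 called, with a median difference of -0.19 on chips 4 to 7. On all 4 chips 2 of them were lower and 0 higher, beside 8.45% and 7.44% of all genes. Heyl, a Notch-induced repressor, read 7.85, 8.17, 8.55 and 8.18 in MyoD+/-, against 8.85, 8.83, 8.91 and 8.25 in wild type. The gap was unequal, -1.003 on chip 4, -0.66 on chip 5, -0.35 on chip 6 and -0.07 on chip 7, and most of it came from arrays 1 and 2 (-0.52 ± 0.19, interval -0.91 to -0.13, adjusted p = 1 by limma). Hey1, its brighter relative, read 12.68, 12.61, 12.53 and 12.69 in MyoD+/-, against 12.77, 12.66, 12.64 and 12.72 in wild type. All 4 differences were below 0 yet none exceeded 0.11 in size (-0.07, interval -0.39 to 0.26). The receptor gene Notch3, itself a Notch target, differed by -0.03 (interval -0.40 to 0.34), and Nrarp, a feedback inhibitor of Notch, by -0.20 (interval -0.64 to 0.24).

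Among the receptors, ligands and cofactors 33 of 49 were measured and 0 called. Their median difference on chips 4 to 7 was -0.03, and 28 of the 33 intervals lay within 1.5-fold, 8 of the 9 abundant ones also over all chips. Notch1, the receptor, read 10.85, 11.34, 11.63 and 11.22 in MyoD+/-, against 11.24, 11.54, 11.90 and 11.49 in wild type. It was lower on each chip, by -0.38, -0.20, -0.27 and -0.27 (-0.28 ± 0.10, interval -0.49 to -0.07, adjusted p = 1), and by -0.27 over all chips. Dlk1, a Notch ligand relative and the brightest member, differed by -0.03 with an interval of -0.22 to 0.16, which is 0.856- to 1.12-fold. The gamma-secretase subunits Ncstn and Psenen differed by -0.17 and 0.02, and the other 2 Ncstn probes by -0.0033 and -0.02. Aph1b, another of these subunits, had the lowest p of the list over all chips (-0.67, interval -1.26 to -0.08), but its wild-type arrays spread from 7.01 to 9.17 and the difference was -0.29 on chips 4 to 7 (interval -1.002 to 0.42).

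Of the myogenic regulators 17 of 23 were measured. Myogenin (Myog), the factor that starts terminal differentiation, read 10.72, 11.38, 10.45 and 10.60 in MyoD+/-, against 10.87, 11.52, 10.83 and 10.46 in wild type. It was below its neighbour on 3 of 4 chips, with a wide interval (-0.13, -0.84 to 0.59), so a change of 1.5-fold either way could not be told from none. Over all chips its sign turned, to 0.31 (interval -0.29 to 0.90). Msc, a repressor of the same protein family and the brightest of the list, differed by -0.20 (interval -0.42 to 0.02). The Id genes, whose products block E proteins, differed by 0.03 for Id1 and 0.04 for Id3.

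The genes could also be placed on the span from MyoD-/- to wild type. To keep the choice apart from the values, genes were taken that fell in MyoD-/- against wild type on chips 1 and 2, where no MyoD+/- array lies. The counts in this paragraph rest on that choice alone. For a position, a gene also had to be called in that direction on chips 4 to 7. That call used the same wild-type arrays that set the upper end of the span, so the positions are not kept apart from the choice. It favours genes whose wild-type level was high there by chance, which can lower the position of MyoD+/-. Among 607 genes that fell on chips 1 and 2 (7.01% of genes), 107 were lower in MyoD+/- on all 4 chips (17.6%, against 8.45% of all genes) and 19 were higher on all 4. Among 609 that rose (7.03%), 65 were higher on all 4 (10.7%, against 7.44%) and 20 lower. Of the 5 synapse genes in the falling group 4 were lower on all 4 chips, of the 5 Notch target genes 2, of the 8 sarcomere genes 2, and of the 7 basement membrane genes 3. The same held for 1 of 3 myogenic regulators and 1 of 7 Notch receptors, ligands and cofactors. It held for 0 of 5 progenitor surface genes, 0 of 5 cell cycle genes and 0 of 1 cell cycle inhibitors. The 2 immediate early genes in the group were higher on all 4 chips.

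The positions differed among the genes that fell. Chrna1 lay at 66.0%, 67.6%, 72.7% and 68.6% of the linear span on chips 4 to 7, a mean of 68.7% ± 2.87 (SD, n = 4). Rapsn lay at 82.3%, 82.4%, 77.0% and 81.3%, a mean of 80.7% ± 2.52. Both had little scatter, and their ranges did not overlap. Chrng averaged 62.4% ± 10.2 and Notch1 60.6% ± 12.5, each below 100% on every chip. Heyl averaged 62.5% ± 25.2, from 38.1% on chip 4 to 93.2% on chip 7, and Hey1 91.2% ± 4.94. Among contractile genes Actc1 averaged 102% ± 14.6, and Actn3 60.6% ± 19.7. The medians were 74.7% over 4 synapse genes, 81.7% over 5 Notch target genes and 96.6% over 8 sarcomere genes, beside 82.0% over the 224 genes so chosen from all genes. Since the wild-type arrays of the span also entered the choice of genes, these positions may be too low, and the size of that effect was not tested. No test was made between the lists.

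**Figure D4:**
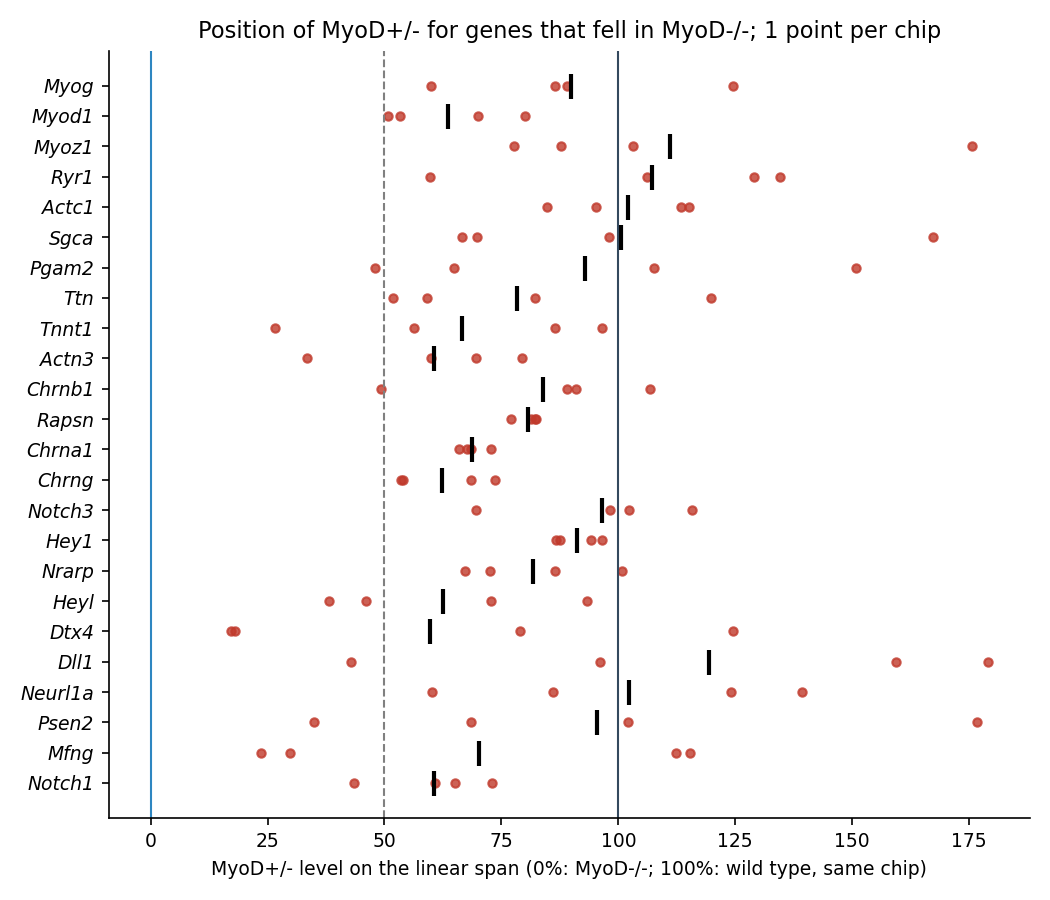
Position of MyoD+/- on the linear intensity span of its chip (horizontal axis, percent; 0% is the MyoD-/- mean and 100% the wild-type array, dashed line 50%) for 24 muscle, synapse and Notch genes that fell in MyoD-/- on both sets of chips, with 1 red point per chip and a black tick for the mean. Chrna1 and Rapsn points cluster at 66.0% to 72.7% and 77.0% to 82.4%, whereas those of Dll1 run from 42.8% to 179%.

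The strongest MyoD-/- changes gave a further reading. On chips 1 and 2, 91 genes were called with a fall of at least 1 on the log2 scale (1.05% of genes) and 135 with a rise of at least 1 (1.56%). On chips 4 to 7 the 91 had a median of -0.10 in MyoD+/- minus wild type and -0.79 in MyoD-/- minus wild type, and the 135 had 0.10 and 0.68. Over all genes the medians were -0.00063 and 0.011. In MyoD+/-, 64 of the 91 were lower and 97 of the 135 higher, 0 were called, and 18 and 20 held that direction on all 4 chips, where 8.45% and 7.44% of all genes were lower or higher. The medians per chip were -0.03, -0.07, -0.12 and -0.15 for the 91, and 0.22, -0.01, 0.05 and 0.17 for the 135. Without MyoD+/- arrays 1 and 2 the fit gave -0.22 and 0.26. On chips 4 to 7 the interval left out a 2-fold fall for 88 of the 91 and a 2-fold rise for 109 of the 135, and over all chips a 2-fold fall for 68 of the 91.

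Single genes of that group differed in where they lay. Ptprv, a receptor phosphatase and the largest fall, read 10.67, 9.76, 10.58 and 9.48 in MyoD+/-, against 10.44, 9.79, 10.16 and 9.61 in wild type. Its MyoD+/- and wild-type values interleave, and the highest MyoD-/- array stood at 9.41. Prkcb, a protein kinase C, read 7.70, 7.32, 7.80 and 8.02 in MyoD+/-, against 7.91, 7.86, 7.62 and 8.13 in wild type. Sgca, a sarcoglycan of the dystrophin complex, differed by -0.05 (interval -0.52 to 0.42). Its other probes differed more on chips 4 to 7. One, detected in 46 of 47 arrays, gave -0.30 and was lower on 3 chips. Another, detected in 26, gave -0.12 and was lower on 2. Cxcl13, a chemokine, read 7.02, 6.36, 6.95 and 6.37 in MyoD+/-, against 7.01, 8.003, 7.35 and 7.59 in wild type, and was level on chip 4 and lower on the other 3 (-0.81, interval -1.82 to 0.19). Among the rises, the cornified envelope genes Ppl and Sprr2k passed detection on 18 of 18 MyoD-/- arrays, against 0 of 4 from MyoD+/- and 0 of 10 from wild type. For Ppl this holds for the brighter probe alone: MyoD-/- minus wild type was 2.79 by it over all chips, and 0.19 by a second probe that was detected in 21 of 47 arrays. Sprr2k was at least 2.40-fold higher in MyoD-/- than in MyoD+/-, where an undetected probe was given at least its array's lowest detected level. The chemokine Ccl5 read 7.28, 9.19, 6.42 and 7.21 in MyoD+/-, so 1 array stood above the wild-type range of 5.22 to 7.46. Papss2, which makes the sulfate donor of the cell, passed detection on 0 of 4 MyoD+/- arrays and on 4 of 10 from wild type. Its probe was detected in only 6 of 47 arrays. Its difference turned sign, from -0.44 over all chips to 0.23 on chips 4 to 7, where MyoD+/- was lower on 1 chip.

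Most genes in which MyoD+/- departed from the log2 midpoint lay on the wild-type side. Over all chips 9 genes were called (0.104% of genes), 5 above the midpoint (0.0578%) and 4 below (0.0462%). Besides Myod1, those above were Pdgfrl (0.80 ± 0.13, adjusted p = 0.000673), Calcr (0.86 ± 0.16, adjusted p = 0.00599), Mycl (0.82 ± 0.15, adjusted p = 0.00776) and Tex14 (1.10, adjusted p = 0.0206). Tex14 passed detection on 0 of 18 MyoD-/- arrays, 4 of 4 from MyoD+/- and 2 of 10 from wild type, so no fall from wild type to MyoD-/- is shown for it. Its MyoD+/- level was 0.85 above wild type over all chips (adjusted p = 0.93). Mycl, a Myc family factor, read 10.79, 11.07, 10.60 and 10.83 in MyoD+/-, against 10.88, 11.19, 10.92 and 10.93 in wild type, lower on all 4 chips by 0.09 to 0.32. Calcr, the calcitonin receptor of quiescent muscle stem cells, passed detection on 0 of 18 MyoD-/- arrays, 4 of 4 from MyoD+/- and 9 of 10 from wild type. That is its brighter probe, and a second one, detected in 5 of 47 arrays, gave -0.76 for MyoD-/- minus wild type over all chips, against -1.96. The 4 below were Ehbp1l1 (-0.94 ± 0.14, adjusted p = 0.000378), Reln (-0.99 ± 0.17, adjusted p = 0.00146), Plppr5 (-0.93, adjusted p = 0.0152) and Myh8 (-0.66, adjusted p = 0.0297). Of these, Ehbp1l1, Reln and Myh8 were higher in MyoD-/- than in wild type on well-detected probes, while Plppr5 passed detection on 9 of 18 MyoD-/- arrays, 0 of 4 from MyoD+/- and 0 of 10 from wild type, and its second probe on 4 of 47 arrays. Reln, the secreted protein reelin, read 10.20 to 11.22 in MyoD-/-, 8.83, 9.41, 9.85 and 9.50 in MyoD+/- and 9.69, 9.69, 9.74 and 9.52 in the wild-type arrays of chips 4 to 7. On chips 4 to 7, 35 genes were called (0.404%), 23 above (0.266%) and 12 below (0.139%). Without MyoD+/- arrays 1 and 2 the count over all chips was 0, without chip 4 it was 1, and without chip 5 it was 4.

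The remaining lists also held no called gene. As a scale for their counts, 8.45% of all genes were lower and 7.44% higher in MyoD+/- on all 4 chips. Of 17 progenitor surface and signalling genes all had intervals within 2-fold, and Vcam1, Sdc4 and Fgfr1 were higher on all 4 chips (0.20, 0.28 and 0.17 on chips 4 to 7). A second Fgfr1 probe, detected in 30 of 47 arrays, gave -0.09 there and was lower on 3 of 4 chips. Vcam1 and Sdc4 rose in MyoD-/- on the same chips. As Vcam-1 was used in the sort, its transcript is not independent of the gate. Of 19 basement membrane and matrix receptor genes, 6 were lower on all 4 chips and 0 higher. Agrn, encoding agrin, read 12.59, 12.56, 12.41 and 12.45 in MyoD+/-, against 12.65, 12.78, 12.77 and 12.54 in wild type (-0.18, interval -0.40 to 0.03). The laminin receptor Bcam was lower by -0.63 on chip 4 and by -0.24 to -0.11 on the others. Cell cycle genes had a median of -0.08 over 18 measured, and Cdc20, which activates the anaphase complex, was -0.39 over all chips but -0.13 on chips 4 to 7. The cell cycle inhibitor Cdkn1a, which MyoD induces in cultured myoblasts, differed by 0.02 (interval -0.21 to 0.25). Immediate early genes, which respond to handling of tissue, had a median of 0.20 over 12 measured, and 4 of them were higher on all 4 chips. Fos read 14.71, 14.62, 14.10 and 14.29 in MyoD+/-, against 13.70, 14.22, 13.87 and 14.10 in wild type.

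The lowest p-values over all chips belonged to another set of genes. Of the 8 named ones, Matn1, Matn4, Col9a2 and Acan encode cartilage matrix proteins. Matn1 read 8.73, 8.51, 5.60 and 4.98 in MyoD+/- arrays 1 to 4 and 5.17 to 6.401 in the 10 wild-type arrays. Acan, aggrecan, read 8.59, 7.69, 5.50 and 4.82 in MyoD+/-, against 5.05 to 6.17 in wild type. Arrays 1 and 2 stood above every wild-type array in both genes, and arrays 3 and 4 within or below their range. Col9a2, a chain of collagen IX, followed with 9.66, 9.33, 8.02 and 7.49 in MyoD+/-, against 6.78 to 8.18 in wild type, and Col2a1, the main cartilage collagen, with 11.85, 11.65, 8.99 and 7.59, against 7.04 to 9.83. Itgbl1 (1.39, interval 0.71 to 2.07) and Fam180a (1.99, interval 0.92 to 3.05) had the same 2 high arrays. Itgbl1 and Acan each passed detection on 2 of 4 MyoD+/- arrays and on none of the 10 from wild type. For these genes the size of the difference is set against wild-type levels at background. The summed level of 5 tendon and cartilage markers ran from 11.29 to 12.65 in MyoD+/- and from 11.37 to 11.53 in wild type on chips 4 to 7, and its part in other differences of arrays 1 and 2 was not tested. None of these genes was called (limma, adjusted p = 0.895 for Matn1, Itgbl1 and Col9a2, and 0.93 for Acan and Matn4).

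**Figure D5:**
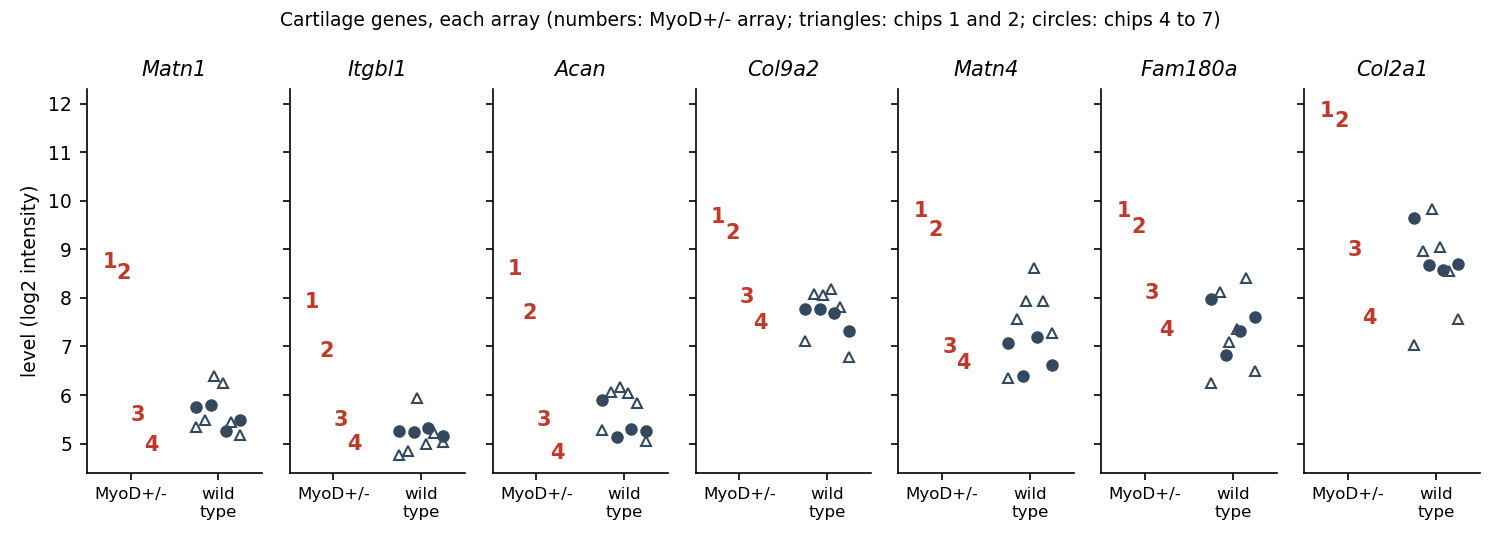
Levels (log2 intensity, vertical axis) of 7 genes, most of them cartilage genes, in each MyoD+/- array (red numbers, the array's number) and wild-type array (triangles chips 1 and 2, circles chips 4 to 7). MyoD+/- arrays 1 and 2 lie above all 10 wild-type arrays in every panel, and arrays 3 and 4 among or near them.

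The other pair of low p-values were in C1qtnf3 and Lyz1. C1qtnf3, a secreted C1q-related protein, read 12.37, 12.22, 11.91 and 11.90 in MyoD+/-, against 11.41 to 12.07 in wild type, and was 0.54 over all chips (interval 0.25 to 0.83, adjusted p = 0.895). It rose by 1.27 in MyoD-/- (adjusted p = 1.13e-13). Lyz1, a lysozyme, read 6.55, 6.94, 6.26 and 6.73 in MyoD+/-, against 5.12 to 6.31 in wild type.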

How the data were processed

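Total RNA of sorted E17.5 muscle progenitors was amplified to biotin-labelled cRNA and measured on Illumina bead arrays, per the labels. The deposited probe table gives linear signal intensity without normalisation, with a detection p-value for each probe, per the file headers. GenomeStudio 2010.1 is named in the submitters' processing notes. The authors' processed intensity values, also deposited, were tried as an alternative; the sources used here do not describe how they were made.

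With limma 3.58.1 in R 4.3.3, neqc corrected the background by the detection p-values, added 16 and applied quantile normalisation and log2. Probes at a detection p under 0.01 in at least 4 arrays were kept, and the brightest of a gene used, which left 8658 genes. Of 25697 probes, 23978 have 1 gene symbol, 1719 none and 0 several. All 47 arrays of 5 genotypes were fitted with chip as fixed effect (36 residual degrees of freedom), lmFit and eBayes, with 95% intervals; tests are two-sided. The fit on chips 4 to 7 had 16. Arrays of chips alike in layout were to be averaged if at least 75% correlated best with their partner; chips 6 and 7 reached 58.3% (7 of 12 arrays), so every array is its own sample. Where a gene is undetected in every array of a group, "at least" compares with the higher of its own level and the array's lowest detected level.

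The members, gene lists and tests were chosen with earlier results of these data known. Named genes are Myod1, the 8 of lowest p, up to 4 called each way against the midpoint, the lowest-p member of each list, the 4 brightest of the muscle, synapse and Notch lists, and the 8 largest falls and 4 largest rises on chips 1 and 2. Other named genes were chosen after their values were seen. The fit over all chips was run on simulated data with planted changes that were equal on every chip. That run does not test its intervals where effects differ between chips, as for the sarcomere list. Alternatives covered normalisation, filter, chip, sex, probe and samples.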

Additional observations from a re-analysis of the deposited data

Results flagged for a closer look

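In 8 of 126 gene and genotype groups 1 array stood apart from its group by more than Dixon's 95% limit, and chance alone gives about 1 group in 20. In MyoD+/-, array 2 was high in Id3 at 11.08, with the next at 10.63, and low in Rapsn at 10.73, with the next at 10.93. Stmn2, a neuronal gene, was at 5.08 in MyoD+/- array 4, with the next at 4.97, but it was undetected in all 4 MyoD+/- arrays. In wild type, array 4 stood apart in 4 genes. It was high in Stmn2 at 7.77, with the next at 5.08, and in Tcf4 at 14.36, with the next at 13.84. It was low in Myh8 at 12.01, with the next at 12.45, and in Ccl5 at 5.22, with the next at 6.42. Itgbl1 was at 5.93 in wild-type array 3, with the next at 5.32, and was undetected in all 10 wild-type arrays. Rapsn in MyoD+/- array 2 has its counterpart in the wild-type array of the same chip, which at 10.91 was the lowest of chips 4 to 7.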

How the results depend on the processing

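Between MyoD+/- and wild type 0 genes were called under 34 of 36 alternatives (limma, adjusted p), with 412 genes at an unadjusted p under 0.05 in the reported fit. Leaving out single MyoD+/- or wild-type replicates gave 0 to 2, the 2 being Itgbl1 and Col9a2 without MyoD+/- replicate 4, and a replicate block gave 23. The replicate numbers do not pair the samples, since deviations of same-numbered arrays correlated at -0.146, 0.017, -0.182 and -0.302; the same block gave 1077 for MyoD-/- against wild type and 121 for the midpoint. Myod1 was lower in MyoD+/- under 36 of 36 alternatives, by -0.52 to -0.13, with adjusted p from 0.583 to 1. MyoD-/- against wild type (2003) came to 1288 when each array was scaled to one median, 873 higher and 415 lower, 1139 on chips 4 to 7, 1229 with no chip term, 846 on chips 4 to 7 with chips 6 and 7 joined and 1013 there with a common median. MyoD+/- against MyoD-/- (400) came to 916, 708 and 841 on chips 4 to 7 alone, joined and scaled, to 87 without MyoD+/- arrays 1 and 2, to 198 without chip 4 and 210 without chip 5, and to 216 to 436 without single replicates. The midpoint count (9) came to 25 with a common median, 35, 20 and 23 on chips 4 to 7 alone, joined and scaled, 55 with no chip term, 27 with chip as a random block, 17 with sex, 0 without MyoD+/- arrays 1 and 2, 1 without chip 4, 4 without chip 5 and 2 to 32 without single replicates. The highest of these came without wild type replicate 8, and wild type replicate 9 gave 18. Of 104 muscle, synapse and Notch genes 56 had intervals within 1.5-fold, against 86 with no background correction, 35 with no chip term, 29 with the replicate block and 31 without MyoD+/- arrays 1 and 2. For genes chosen on chips 1 and 2 the medians without MyoD+/- replicates 1 and 2 together were -0.22 and 0.26. Of 2255 values of the 64 named genes 101 moved by over 1 SD, 3 were called, and 8 genes turned sign on chips 4 to 7. The cause of these shifts was not tested. Joining chips, leaving out arrays 1 and 2 and the common median on chips 4 to 7 were chosen after seeing the data. Signal over background limits dim genes such as Chrnd, Dok7 and Srl, which were undetected in many arrays.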
